A study of Homo sapiens with 414 samples.

Results

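Metallothioneins are small cysteine-rich proteins that bind zinc, copper and cadmium, and SLC30A1 (ZnT1) is the plasma membrane transporter that moves zinc out of the cell. In human cells the transcription factor MTF1 senses free zinc and binds metal response elements in the promoters of these genes, so a rise of their transcripts is widely used as a marker of metal exposure. In brain, MT3 is the form of neurons and astrocytes and is known to respond to metals far less than MT1 and MT2 genes. The 10 genes described here were taken by name from the 19084 genes of the deposited table: the metallothioneins MT1A, MT1E, MT1F, MT1G, MT1H, MT1M, MT1X, MT2A and MT3, and SLC30A1. The choice was by name alone, but it was made with earlier results of these data known.

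The RNA came from neural progenitor cells derived from H1, an established human embryonic stem cell line, seeded as 2D cultures and exposed to 1 compound at 1 dose from the day of seeding. Of the 414 libraries, 266 came from 29 compounds labelled toxic and the rest from 16 compounds labelled non-toxic, collected on 11 days from day 1 to day 39. Each compound had 1 library per day, so the days of a compound served as its replicates, and the non-toxic libraries of the same days (among them 0.1% DMSO, sucrose, ibuprofen and acetaminophen) were the reference. Whether wells came from separate cultures is not stated, so the p-values measure only the spread between these libraries. The compounds that carry most of the results are cadmium at 50 µM, arsenic at 5 µM, busulfan at 50 µg/ml, cytosine beta-D-arabinofuranoside (AraC) at 5 µM and okadaic acid at 3 nM, each on days 1, 2, 3, 4 and 6. Lead acetate at 30 µM was followed to day 39, and maneb at 60 µM had a single library on day 1. The labels give no salt or valence for cadmium and arsenic.

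Some libraries stood apart before any result. Levels are in TPM, a length-corrected abundance whose total is the same in every library and which keeps no sequencing depth, so the depth behind each value is unknown. In vincristine on day 4 the median gene with at least 10 TPM had a log2 deviation of -1.05 from the non-toxic libraries of that day, and 17188 genes reached 1 TPM. Maneb on day 1 (median deviation -1.48), monosodium glutamate on day 1 (-1.46) and ibuprofen on day 8 (-1.04) combined a low median with a slope of expression against transcript length of -0.55, -0.51 and -0.44 log2 per log2 of length, meaning that long transcripts were low in them. The median transcript of SLC30A1 has 5474 bases in GENCODE 29, against 396 for MT1A and 684 for MT2A, so those libraries are marked wherever SLC30A1 is compared. In bulk RNA, fewer cells of a type and less RNA per cell cannot be told apart.

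Promoters were searched for the metal response element. For 4 of the 10 genes the bases before the transcription start were available here (RefSeq, GRCh38.p14). The 250 upstream bases of these 4, MT2A, MT1X, MT1H and SLC30A1, are printed for that reason. Capitals mark the core of the metal response element, TGCACNC or TGCGCNC on either strand. MT2A lies at chr16:56608334-56608583, MT1X at chr16:56682220-56682469 and MT1H at chr16:56669564-56669813, all on the plus strand, and SLC30A1 at chr1:211579162-211579411 on the minus strand.
MT2A: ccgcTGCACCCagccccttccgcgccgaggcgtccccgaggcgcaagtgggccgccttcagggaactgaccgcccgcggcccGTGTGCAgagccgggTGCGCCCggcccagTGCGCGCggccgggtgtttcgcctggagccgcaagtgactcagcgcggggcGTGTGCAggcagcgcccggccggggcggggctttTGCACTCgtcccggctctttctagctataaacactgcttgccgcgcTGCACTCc
MT1X: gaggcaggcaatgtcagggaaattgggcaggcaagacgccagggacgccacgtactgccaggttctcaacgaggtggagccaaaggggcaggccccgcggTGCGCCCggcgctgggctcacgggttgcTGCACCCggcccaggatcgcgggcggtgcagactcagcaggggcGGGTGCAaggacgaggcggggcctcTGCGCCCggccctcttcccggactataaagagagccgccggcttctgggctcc
MT1H: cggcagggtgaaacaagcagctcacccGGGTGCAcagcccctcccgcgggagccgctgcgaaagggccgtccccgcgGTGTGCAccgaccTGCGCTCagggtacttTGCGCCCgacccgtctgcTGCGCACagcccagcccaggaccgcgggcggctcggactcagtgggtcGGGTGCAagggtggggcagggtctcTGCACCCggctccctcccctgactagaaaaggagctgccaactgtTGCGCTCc
SLC30A1: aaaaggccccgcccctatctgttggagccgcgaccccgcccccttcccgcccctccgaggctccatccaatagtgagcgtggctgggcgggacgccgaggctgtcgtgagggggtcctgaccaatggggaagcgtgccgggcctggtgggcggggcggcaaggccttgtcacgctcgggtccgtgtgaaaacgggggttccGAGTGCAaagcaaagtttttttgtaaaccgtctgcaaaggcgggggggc
These windows hold 7, 4, 8 and 1 cores in the order printed. Among 35116 RefSeq promoters of the same length, 24.83% held at least 1 core, 0.37% at least 4, 0.031% at least 7 and 0.017% at least 8. A match is a description of letters and not of a bound site. In RefSeq gene order the 9 metallothioneins lie on chromosome 16 in the order MT3, MT2A, MT1E, MT1M, MT1A, MT1F, MT1G, MT1H and MT1X, with MT1B and pseudogenes between them, while SLC30A1 is on chromosome 1. Because they are near copies, reads can be misassigned: of the 50-base windows of one transcript, 14.2% in MT1G, 10.6% in MT1E, 10.2% in MT1H, 7.05% in MT1M, 4.9% in MT1A, 3.59% in MT1F and 2.17% in MT2A occurred in another metallothionein locus. None of the windows of the MT1X, MT3 or SLC30A1 transcript used did, but windows of MT1A, MT1F, MT1G, MT1M and MT2A matched other transcripts of MT1X, so MT1X can share reads too.

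In the non-toxic cultures most of these genes were listed at or near 0. On days 1 to 6 no non-toxic library exceeded 1.09 TPM for MT1A, 1.04 for MT1E, 3.62 for MT1F, 1.34 for MT1G, 0.98 for MT1H or 1.69 for MT1M. MT1X reached 19.58 TPM, MT2A 15.65, MT3 24.89 and SLC30A1 17.05. The 9 metallothioneins together summed to between 7.77 and 33.1 TPM, with a median of 18.4 TPM, over the 79 non-toxic libraries of those days. All 10 genes passed the filter of at least 1 TPM in at least 5 libraries, but MT1H did so through its cadmium and arsenic libraries, since 4 others reached 1 TPM. Its calls in these metals are therefore no support. They are set aside where the genes called in cadmium, in arsenic or between the metals are counted. The totals over all compounds and the counts in the closing section include them.

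Each compound was compared with the same-day non-toxic libraries on log2(TPM + 1) with limma, fitted over 16318 genes with Benjamini-Hochberg adjustment over all of them, and a gene is called below an adjusted p of 0.05. Each SE and p rests on a spread pooled over the libraries of the compound and the non-toxic libraries. On days 1 to 6, 28 toxic compounds could be fitted. Of the 280 pairs of compound and gene, 69 were called higher and 8 lower. Over all genes tested in these comparisons 13.6% of the pairs were called higher and 19.3% lower. In 25 of the 77 calls no library of the compound exceeded 5 TPM: 12 of these were MT1G, 4 MT1A and 3 MT1H or MT1M, and the fitted change of genes this low rests on little signal. The other 52 calls fell on 16 compounds, and 40 calls had a difference of at least 1 log2. When each of the 16 non-toxic compounds was set against the others in the same way, none of the 160 pairs was called (0.137% of all genes were), with 11 pairs at an unadjusted p below 0.05. MT2A was called for 13 compounds, SLC30A1 for 9 and MT1X for 5.

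**Figure D1:**
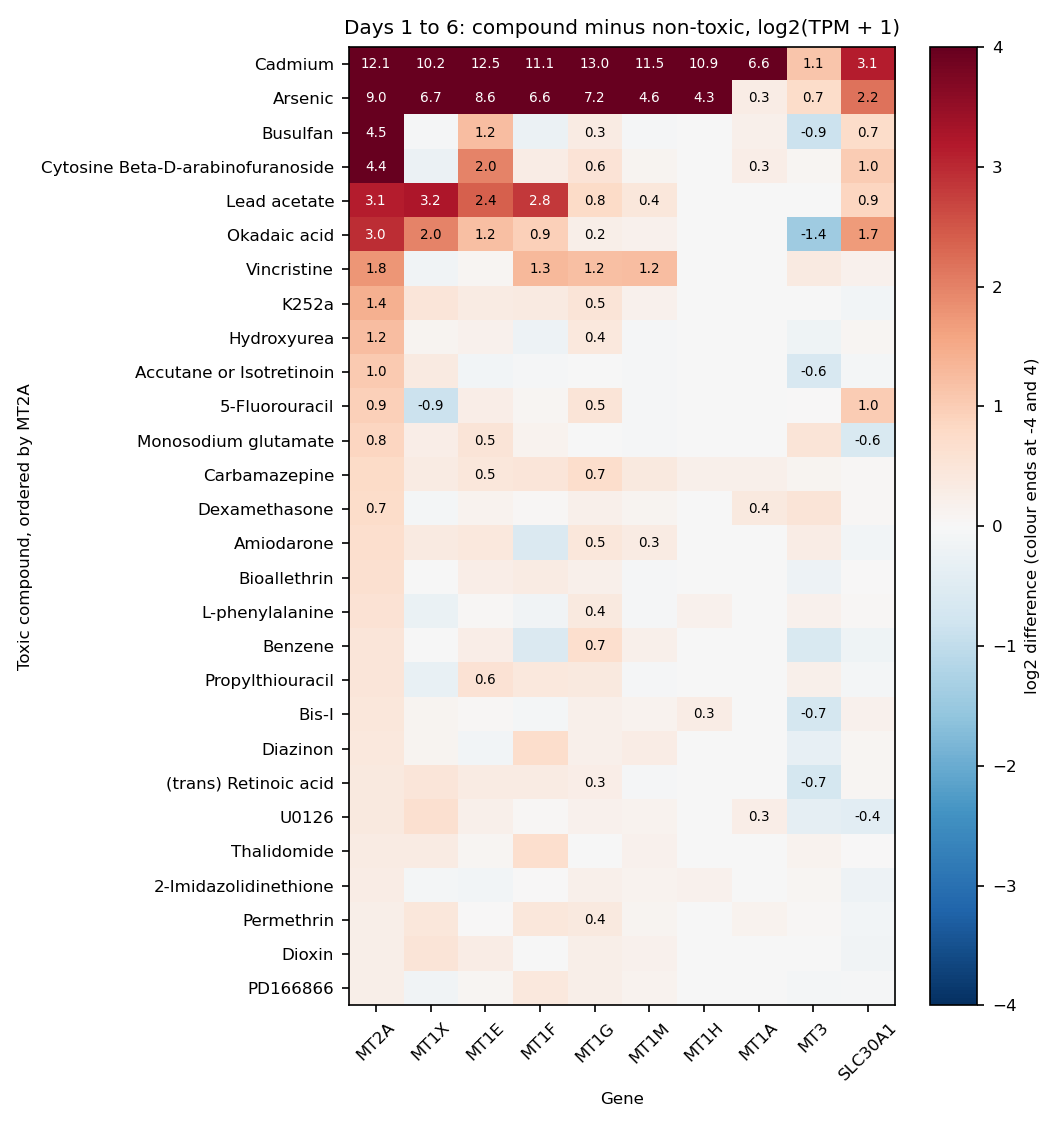
Log2 difference of TPM + 1 between each toxic compound and the same-day non-toxic libraries on days 1 to 6 (rows: 28 compounds ordered by MT2A; columns: the 10 genes), with the value printed where the adjusted p is below 0.05. Cadmium and arsenic hold values in every column, while busulfan and AraC hold 4.5 and 4.4 for MT2A and no value for MT1X.

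Of the 28 compounds fitted on days 1 to 6, cadmium had the largest difference for each of the 10 genes. MT2A stood at 36752, 35993, 33799, 25049 and 18078 TPM on days 1, 2, 3, 4 and 6, against non-toxic day means of 10.2, 8.04, 5.30, 4.87 and 3.78 TPM. MT1G stood at 11906, 9624, 8027, 6286 and 8123 TPM on the same days, against at most 1.34 TPM in any non-toxic library. The groups were separated by more than 3 orders of magnitude in every library, and MT2A was lower on each successive day of exposure in these single libraries. The 9 metallothioneins together made up between 4.66% and 7.80% of all TPM in a cadmium library, against at most 0.00331% in a non-toxic library of those days.

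The other MT1 forms were also abundant. Over the 5 cadmium libraries MT1E ranged from 5007 to 9661 TPM, MT1X from 5510 to 10213 TPM, MT1F from 2957 to 4082 TPM, MT1M from 2331 to 3622 TPM and MT1H from 1290 to 2739 TPM. MT1A was far lower, at 154, 136, 114, 116 and 29.5 TPM. SLC30A1, the exporter, had 175, 109, 111, 85.1 and 86.3 TPM in cadmium against 11.3, 14.8, 12.4, 11.3 and 8.59 TPM in the non-toxic day means. None of these values overlapped the non-toxic libraries.

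The 9 genes other than MT1H were all called higher in cadmium, beside 24.6% of all genes tested, and MT1H was called as well. The differences were 12.10 ± 0.266 for MT2A, 13.04 ± 0.0914 for MT1G, 12.52 ± 0.138 for MT1E and 3.15 ± 0.0854 for SLC30A1 on the log2(TPM + 1) scale (SE), with adjusted p of 4.06e-58, 7.79e-97, 2.48e-81 and 2.37e-51. These SE and p rest on a spread pooled over the 5 cadmium and the non-toxic libraries, not over the cadmium libraries alone. For MT1G the SE was 0.439 in the fit of cadmium against arsenic libraries. For the genes near 0 in the non-toxic libraries the log2(TPM + 1) scale understates the change. MT3 stood apart from the rest: it had 8.42, 15.8, 18.3, 25.4 and 3.48 TPM in cadmium, above every same-day non-toxic library on 4 days and below every one on day 6 (lowest non-toxic value 11 TPM), with a difference of 1.10 ± 0.286 (adjusted p = 0.000318), or 2.73 with the transcript length slope as a covariate. The median gene of at least 10 TPM fell by 0.67 log2 in cadmium, and the transcript length slope of these libraries ran from -0.14 to -0.09; their part in the result was not tested. The further metallothionein locus MT1B, outside the 10, reached 1 TPM in 5 libraries, 2 of them outside cadmium and arsenic, and so passed the filter only through cadmium. It averaged 2.15 ± 2.72 TPM in cadmium (SD, n = 5) and was listed at 0 in every non-toxic library, while its highest value, 25.8 TPM, was in vincristine on day 4.

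Arsenic also had the 9 genes other than MT1H called higher, and MT1H as well, with smaller differences than cadmium. MT2A had 3680, 2443, 3796, 3094 and 4174 TPM on days 1, 2, 3, 4 and 6, a difference of 9.0 ± 0.277 (adjusted p = 3.76e-47). MT1X had 403, 508, 811, 713 and 551 TPM, and MT1E ranged from 323 to 491 TPM. MT1F was highest on day 1, at 334 TPM, and 89.1 to 137 TPM afterwards, while MT1G was lowest on day 1, at 56.3 TPM, and reached 288 TPM on day 4. Neither gene overlapped its non-toxic range on any day.

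MT1H (7.70 to 35.1 TPM) and MT1M (12.6 to 54.1 TPM) were present in all 5 arsenic libraries. SLC30A1 had 58.1, 57.0, 70.9, 45.6 and 46.9 TPM, a difference of 2.17 ± 0.0781 (adjusted p = 2.98e-42). Beside these calls, 34.8% of all genes were called higher. The call of MT1A rested on 1 library of 1.97 TPM with the other 4 listed at 0, and that of MT3 (0.73 ± 0.239, adjusted p = 0.00401) ended without the day 2 library (0.43, adjusted p = 0.0646); with the length slope as a covariate these differences were 1.07 and 1.64. The median gene fell by 0.36 log2 in arsenic.

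Lead acetate, the third metal, had 7 of the 10 genes called higher on days 1 to 6. MT2A had 35.8, 38.4, 134, 68.0 and 49.7 TPM on days 1, 2, 3, 4 and 6 (difference 3.15 ± 0.292, adjusted p = 1.39e-15), and MT1X had 33.5, 31.9, 74.6, 60.7 and 69.2 TPM (3.25 ± 0.325, adjusted p = 3.94e-14). MT1F, at 4.62 to 17.9 TPM, and MT1E, at 0.68 to 29.8 TPM, lay above every same-day non-toxic library on all 5 days. Day 3 was the highest library for MT2A, MT1X, MT1E and MT1F alike. SLC30A1 had 17, 26.9, 24.4, 21.6 and 20.1 TPM (0.87 ± 0.0765, adjusted p = 1.28e-16), also above every same-day non-toxic library. MT1A and MT1H were listed at 0 in all 11 lead libraries, and MT3 was not called. Beside the 7 calls, 17% of all genes were called higher, and the calls of MT1G and MT1M came from 2 and 1 libraries above 0. The 5 genes of a mesenchymal marker list were also all called higher in lead acetate on these days (summed level 1364 to 3101 TPM, against 2145 to 2584 TPM on day 1 and 465.8 to 596 TPM on day 6 in the non-toxic libraries), as they were in arsenic (2243 to 19437 TPM), while all 5 were lower in cadmium (363 to 1336 TPM). The 4 genes of an epithelial list were all called higher in cadmium (summed level 36.4 to 73.3 TPM; EPCAM 2.80, CDH1 2.73) and in arsenic (64.6 to 114 TPM), against 12 to 20.3 TPM on day 1 and 9.78 to 13.9 TPM on day 6 in the non-toxic libraries, and none was called in lead acetate. The 4 genes of a pluripotency list were called higher in cadmium and arsenic too, by at most 0.53 and 0.50 log2, and 1 was in lead acetate. All 6 genes of a neural progenitor list were called lower in cadmium (median -2.11) and in arsenic (-1.95). The median over genes of at least 10 TPM was -0.67 and -0.36 there. In lead acetate 2 of the 6 were higher and 2 lower. Of 6 neuronal markers, 5 were lower in arsenic (median -1.15) and 4 in lead acetate (-0.22), with none higher. In cadmium 3 of the neuronal markers were higher and 2 lower. The part of these markers in the results of the metals was not tested.

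On days 8 to 39 the lead acetate libraries held more of these transcripts. MT2A had 125, 1723, 1469, 569, 594 and 904 TPM on days 8, 10, 15, 21, 27 and 39, against non-toxic day means of 10.3, 15.5, 22.6, 25.2, 33.0 and 92.2 TPM. MT1X had 56.4, 494, 203, 147, 163 and 392 TPM and MT1E had 3.21, 217, 79.3, 46.5, 49.5 and 186 TPM on those days. SLC30A1 had 18.3, 48.8, 19.5, 32.3, 40.8 and 46.4 TPM, against non-toxic means of 6.04, 5.69, 8.67, 8.44, 9.38 and 16.1 TPM. Every one of these values lay above all same-day non-toxic libraries, and day 10 was the highest day for MT2A, MT1X, MT1E and SLC30A1.

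On days 8 to 39, 8 of the 10 genes were called higher in lead acetate, beside 16.1% of all genes. The differences were 4.73 ± 0.262 for MT2A, 5.00 ± 0.372 for MT1E, 4.83 ± 0.400 for MT1X, 3.79 ± 0.341 for MT1F, 1.84 ± 0.174 for SLC30A1 and 0.52 ± 0.161 for MT3 (6 libraries, all with adjusted p of 0.00878 or less). The test of the later days minus the earlier days within lead acetate was called for MT1E (2.61 ± 0.408, adjusted p = 1.99e-07), MT2A (1.59 ± 0.375, adjusted p = 0.000829), MT1X (1.58 ± 0.493, adjusted p = 0.0149) and SLC30A1 (0.97 ± 0.181, adjusted p = 1.58e-05), beside 8.83% of all genes called higher.

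**Figure D2:**
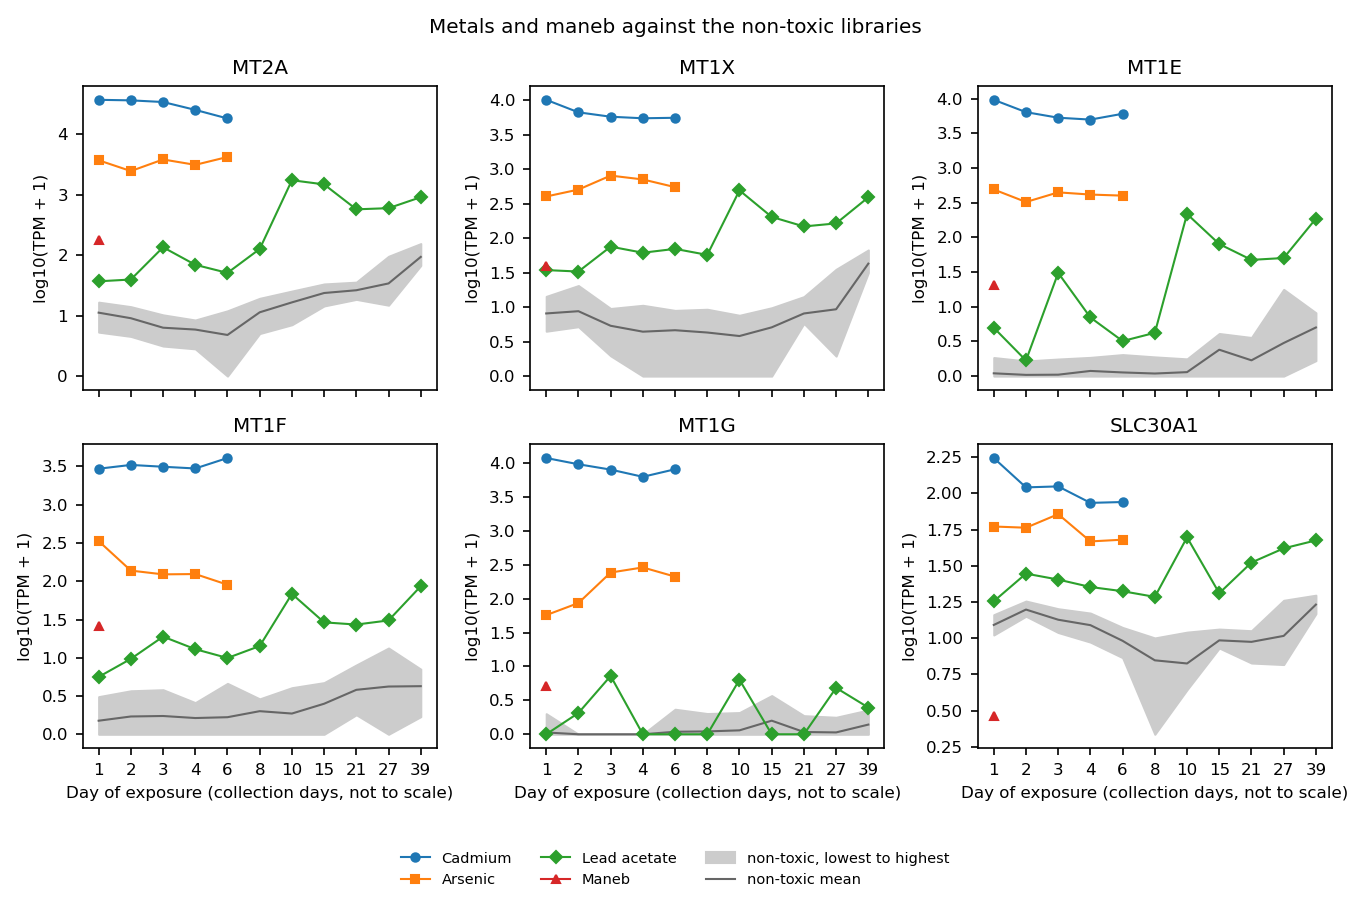
TPM of 6 genes on a log10(TPM + 1) scale by collection day for cadmium, arsenic, lead acetate and maneb (points, 1 library each), with the lowest to highest non-toxic library as a grey band and the non-toxic mean as a line. The metals lie in the order cadmium, arsenic, lead acetate, lead acetate is higher on day 10 than on day 8, and the maneb library lies above the band for the metallothioneins and below it for SLC30A1.

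The metals were also tested against each other on the matched days 1, 2, 3, 4 and 6 at their single doses, which differ. In cadmium 8 of the 9 genes other than MT1H were higher than in arsenic (15.7% of all genes were), by 3.10 ± 0.234 for MT2A, 5.85 ± 0.439 for MT1G, 6.85 ± 0.290 for MT1M and 0.98 ± 0.151 for SLC30A1, with adjusted p of 0.00154 or less. In cadmium 8 of these 9 genes were also higher than in lead acetate (16% of all genes), by 8.95 ± 0.309 for MT2A and 2.28 ± 0.209 for SLC30A1. In arsenic 7 of them were higher than in lead acetate (20.4% of all genes), by 5.85 ± 0.262 for MT2A and 1.30 ± 0.137 for SLC30A1. MT1H was called higher in each pair, and MT3 was called in none: the differences were 0.37 ± 0.450, 1.10 ± 0.542 and 0.73 ± 0.261, with adjusted p of 0.535, 0.113 and 0.0545.

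The mixture of forms differed as well. MT2A made up a median of 51.5% of the summed metallothionein TPM in cadmium, 69.6% in arsenic, 45% in lead acetate on days 1 to 6, and 53.0% in the 16 non-toxic libraries of day 1. MT1G made up a median of 14.2% in cadmium, 3.84% in arsenic and 0% in lead acetate, MT1M 4.98%, 0.453% and 0%, and MT1X 11.3%, 14.4% and 39.4%. These shares are given as descriptions, with no test.

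Genes around the metallothioneins moved as follows. MTF1, the metal-sensing factor, was 13.2 ± 2.60 TPM in cadmium and 12.8 ± 2.53 TPM in arsenic, against a mean of 9.12 TPM over the non-toxic days (differences 0.48 and 0.43, both called; SD, n = 5), and 9.51 ± 1.07 TPM in lead acetate, not called. Of a list of 24 genes (zinc transporters other than SLC30A1, and MTF1), 20 were tested. In cadmium 4 were higher and 11 lower, beside 24.6% and 59.4% of all genes, with a list median of -0.23 beside -0.67 for genes of at least 10 TPM. In arsenic 11 were higher and 6 lower, beside 34.8% and 46.7%. SLC39A8, an importer of zinc and cadmium, was called higher in arsenic (1.42 ± 0.141) and in cadmium (0.47 ± 0.136). SLC39A14, an importer of zinc, iron and manganese, rose in arsenic (1.16 ± 0.0768) and was not called in cadmium. SLC39A10, another importer, fell in both (by 1.24 in arsenic and by 0.67 in cadmium). In lead acetate on days 1 to 6, 5 of the 20 were higher and none lower, beside 17% and 20.8% of all genes.

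All 10 genes of a stress list (heat shock and oxidative stress genes) were called higher in cadmium and in arsenic, with medians of 3.89 and 4.11. HMOX1, heme oxygenase, rose by 8.50 ± 0.138 in cadmium and 9.37 ± 0.151 in arsenic. Between the metals the list split by kind: the heat shock genes DNAJB1, HSPH1, HSPA1A and HSPA1B were higher in cadmium than in arsenic (2.43, 2.05, 2.03 and 1.58), and the oxidative stress genes SRXN1, OSGIN1, GCLM, TXNRD1, SLC7A11 and HMOX1 were lower (-2.63, -2.43, -1.99, -1.43, -1.15 and -0.86). In lead acetate on days 1 to 6, 7 of the 10 were higher, led by HMOX1 (2.12 ± 0.160) and SLC7A11 (1.72 ± 0.0857), while HSPA1A (-0.07), HSPA1B (0.07) and DNAJB1 (0.07) were not called. Cadmium and arsenic, like all compounds here, share the non-toxic libraries as reference.

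Maneb, a manganese-containing dithiocarbamate fungicide, had 1 library, so no test was possible. It held 177 TPM of MT2A, 38.4 of MT1X, 24.7 of MT1F, 19.9 of MT1E and 4.17 of MT1G, against highest day 1 non-toxic values of 15.7, 13.3, 2.10, 0.85 and 1.01 TPM. SLC30A1 went the other way: 1.92 TPM, against 9.53 to 13.5 TPM in the non-toxic libraries, and MTF1 was 1.47 TPM against 7.31 to 9.81 TPM. Maneb was the library with the steepest length slope and the lowest median of all 414 (-0.55 and -1.48), and relative to its own median SLC30A1 lay -0.59 and MT2A 5.53 log2 from the non-toxic mean; the part of the length slope was not tested.

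In AraC and busulfan, which contain no metal, MT2A was called higher and MT1X was not called. In AraC, a cytidine analogue that blocks DNA synthesis, MT2A had 22.4, 43.4, 282, 319 and 582 TPM on days 1, 2, 3, 4 and 6. In busulfan, a DNA alkylating agent, it had 30.4, 19.1, 345, 375 and 833 TPM. All 10 values lay above every same-day non-toxic library, and days 3 to 6 were far above days 1 and 2 in both compounds. The differences were 4.41 ± 0.378 in AraC and 4.48 ± 0.406 in busulfan, with adjusted p of 3.66e-18 and 7.84e-17, placing both between arsenic and lead acetate in the ranking for MT2A.

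MT1X in the same libraries had 5.54, 0.95, 3.73, 2.91 and 8.26 TPM in AraC and 6.54, 4.47, 4.42, 6.02 and 1.54 TPM in busulfan, against non-toxic day means of 7.11, 7.74, 4.37, 3.41 and 3.63 TPM. It was called in neither (-0.23 ± 0.330 and -0.05 ± 0.312, adjusted p of 0.555 and 0.891), and neither was MT1F. AraC on day 6 lay above the non-toxic libraries for MT1X and AraC on day 2 below them. MT1E was called in both, at 0.84 to 8.98 TPM in AraC (1.99 ± 0.170) and 0 to 8.06 TPM in busulfan (1.22 ± 0.192). SLC30A1 had 17.3, 25.2, 29.6, 24 and 26.4 TPM in AraC (1.01 ± 0.0833) and 21.2, 22.1, 11.9, 21.6 and 25.7 TPM in busulfan (0.75 ± 0.0939). Its single value inside the non-toxic range, busulfan on day 3, came from a library with a length slope of -0.21. MTF1 was called lower in both, by 0.28 and 0.30 log2. The 5 mesenchymal markers were all higher in both compounds (summed level 3033 to 8708 TPM in AraC and 3645 to 11833 TPM in busulfan). The 6 neural progenitor markers were all lower in both (median -1.60 in AraC and -1.40 in busulfan). The part of these markers was not tested. In all, 5 of 10 genes were higher in AraC and 4 higher and 1 lower (MT3, -0.87 ± 0.264, not called without day 6, -0.31) in busulfan, beside 40.9% higher in AraC and 29.5% higher and 35.1% lower in busulfan.

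5-Fluorouracil, an inhibitor of thymidylate synthesis given at 10 µM, had SLC30A1 called higher, with 16.5, 21.8, 28.3, 26.2 and 31.6 TPM (1.02 ± 0.0914, adjusted p = 1.87e-16), all above the non-toxic libraries. MT2A had 12.6, 9.93, 12.6, 7.96 and 17 TPM (0.94 ± 0.279, adjusted p = 0.00309), and MT1X was lower, at 4.38, 7.84, 1.01, 0 and 1.48 TPM (-0.87 ± 0.317, adjusted p = 0.0164). Beside these calls 35.5% of all genes were called higher and 16.5% lower. The difference between 5-fluorouracil and AraC was not tested.

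Okadaic acid, an inhibitor of protein phosphatases PP2A and PP1, had the exporter called higher together with MT2A and MT1X. SLC30A1 had 23, 49.4, 51.6, 44.4 and 36.0 TPM (1.69 ± 0.0859, adjusted p = 4.51e-31), the third largest difference after cadmium and arsenic. MT2A had 31.9, 43.2, 54.2, 48.0 and 89.6 TPM (2.96 ± 0.291) and MT1X had 9.30, 16.3, 15.6, 29.1 and 53.8 TPM (1.99 ± 0.338). MT2A and SLC30A1 lay above every non-toxic library on all 5 days, and MT1X on 3. MT3 was lower, at 2.61, 0.83, 3.19, 0 and 1.08 TPM (difference -1.42). In all, 6 genes were higher and 1 lower, beside 35.1% and 39.8% of all genes. The length slope of these libraries lay between -0.03 and -0.19 and was steepest on day 6. With that slope as a covariate MT2A (1.65, adjusted p = 0.00105) and SLC30A1 (1.47, adjusted p = 1.29e-15) were still called, and MT1X (0.66, adjusted p = 0.307), MT1E (0.51, adjusted p = 0.0710), MT1F, MT1G and MT3 (-0.21, adjusted p = 0.715) were not. Of an 8-gene hypoxia list, 7 genes rose in okadaic acid, 6 in AraC and 4 in busulfan, with ADM highest among those named (5.97, 4.55 and 4.32 in that order). The rise was not particular to these 3 compounds. All 8 rose in arsenic (median 1.90), 5 in vincristine, and 4 each in cadmium, hydroxyurea and K252a. In cadmium 2 were lower, and in vincristine 1. All 10 stress genes rose in okadaic acid, with a median of 1.57. There, all 6 genes of a neuronal list (median -1.24) and all 6 neural progenitor markers (-1.36) were called lower. Of the 4 epithelial genes 3 were higher, and of the 5 mesenchymal genes 1 was higher and 2 lower. The part of the hypoxia genes and of these markers was not tested.

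**Figure D3:**
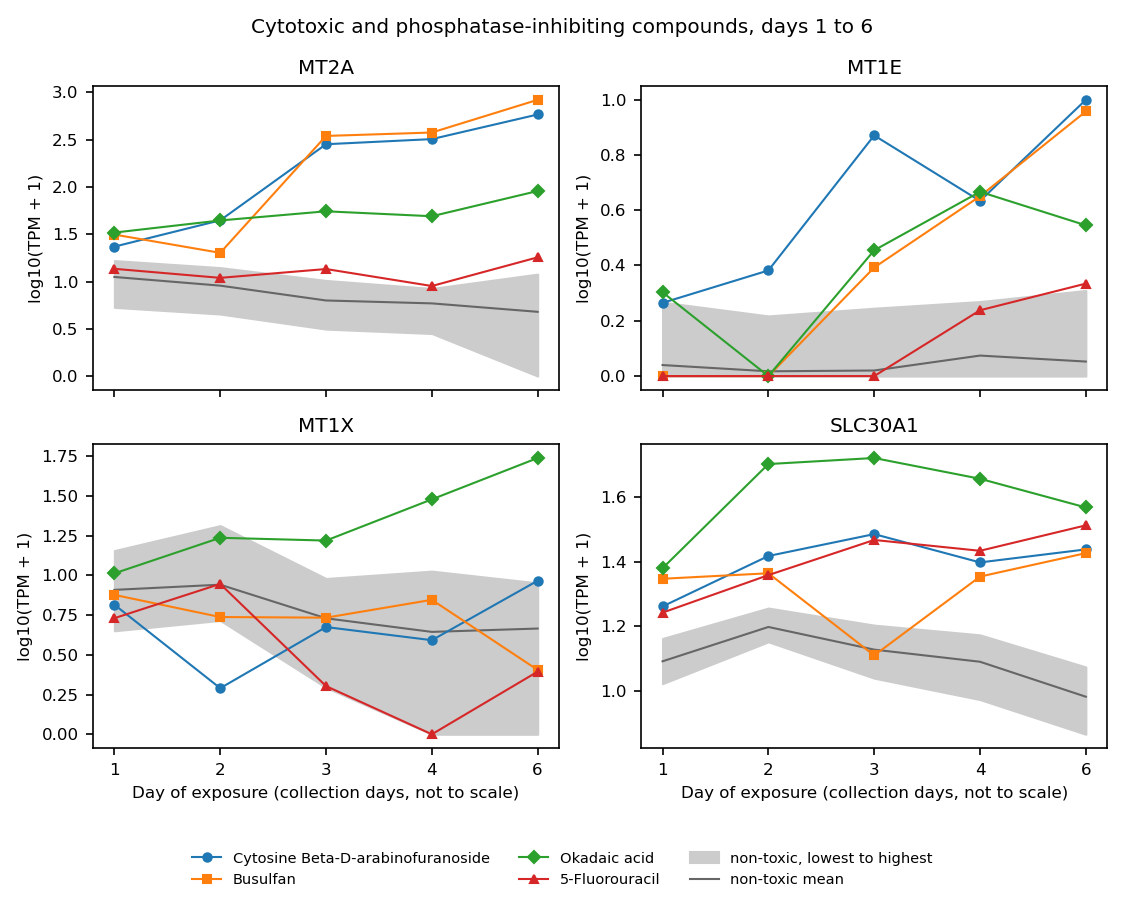
TPM of MT2A, MT1E, MT1X and SLC30A1 on a log10(TPM + 1) scale on days 1, 2, 3, 4 and 6 for AraC, busulfan, okadaic acid and 5-fluorouracil, 1 library per point, with the non-toxic range as a grey band. AraC and busulfan lie above the band for MT2A on every day and within or below it for MT1X except AraC on day 6, while okadaic acid lies above it for MT1X on days 3, 4 and 6.

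MT2A was also called higher, by less, for 7 compounds on days 1 to 6: vincristine, a microtubule poison (1.76 ± 0.320), K252a, a kinase inhibitor (1.44 ± 0.276), hydroxyurea, a ribonucleotide reductase inhibitor (1.25 ± 0.272), isotretinoin (1.04 ± 0.271), 5-fluorouracil as above, monosodium glutamate (0.85 ± 0.281) and dexamethasone, a glucocorticoid (0.72 ± 0.270, adjusted p = 0.0496). Among all genes 33.1% were called higher in vincristine, 15.2% in K252a, 29.7% in hydroxyurea, 15.6% in isotretinoin, 3.54% in monosodium glutamate and 6.01% in dexamethasone. K252a had 15.3, 19.5, 13.1, 18.4 and 18.9 TPM, hydroxyurea 14.4, 16.2, 18.7, 14.9 and 10.2 TPM, and isotretinoin 20.5, 16.8, 12.5, 6.49 and 10.9 TPM on days 1, 2, 3, 4 and 6. They lay above all same-day non-toxic libraries on 4, 3 and 3 of the 5 days. Monosodium glutamate lost its call without the libraries of a length slope below -0.15 (0.59, adjusted p = 0.487). The call of dexamethasone ended with 0.1 TPM added (adjusted p = 0.133), with no filter (0.0606) and with the length slope as a covariate (0.183). Vincristine had 17.7, 6.26, 12.7, 66.3 and 42.9 TPM of MT2A. Its day 4 library held 63.0 TPM of MT1F, 69.6 of MT1G, 21.4 of MT1M and 0 of MT1X, unlike its other 4 days. In the same library the pluripotency list summed to 360 TPM (26.7 to 41.0 TPM in the non-toxic libraries of that day), the epithelial list to 533 TPM (6.37 to 14.8 TPM) and 6 neuronal markers to 443 TPM (4599 to 5147 TPM), and the part of these markers was not tested. Without it the calls of MT1F (0.28, adjusted p = 0.594) and MT1G ended, MT1M was 0.41 and MT2A was still called (1.30, adjusted p = 0.00308).

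SLC30A1 was called lower for U0126, a MEK inhibitor (-0.41 ± 0.0895), and monosodium glutamate (-0.60 ± 0.121) on days 1 to 6. It had 4.08, 13.9, 10.7, 8.91 and 7.34 TPM in U0126 and 1.66, 13.7, 11.8, 8.54 and 6.96 TPM in monosodium glutamate. Only the day 1 library of each lay below the non-toxic range, and both of those had a length slope below -0.15. Without them neither was called (-0.19 in each, adjusted p of 0.0961 and 0.340). MT3 was called lower for (trans) retinoic acid (0.86, 3.31, 1.81, 3.92 and 5.15 TPM, -0.71 ± 0.234), Bis-I, a protein kinase C inhibitor (1.86, 1.72, 1.92, 3.00 and 7.04 TPM, -0.69 ± 0.227), and isotretinoin (1.88, 0, 2.63, 4.55 and 14.3 TPM, -0.64 ± 0.234). Of these, Bis-I lay below the non-toxic libraries on 2 days, (trans) retinoic acid on 1 and isotretinoin on none. With 0.1 TPM added in place of 1, the calls of (trans) retinoic acid (-0.85, adjusted p = 0.0618) and Bis-I (-0.80, adjusted p = 0.083) ended. Among all genes 25.9% were called lower in U0126, 51.3% in monosodium glutamate, 21.1% in (trans) retinoic acid, 25.9% in Bis-I and 21.1% in isotretinoin.

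In the non-toxic libraries 7 of the 10 genes were called in at least 1 of 2 tests between collection days. Such calls were common among all genes: 35.6% were higher and 40.4% lower on day 10 than on day 1. On day 39 against day 10, 43.6% were higher and 34.9% lower. MT3 averaged 2.79 ± 1.07 TPM on day 1, 16.9 ± 3.87 on day 6, 31.9 ± 4.23 on day 10, 68.8 ± 5.29 on day 21 and 331 ± 36.4 on day 39 (SD, n = 16, 15, 15, 11 and 14). MT2A averaged 10.2 ± 3.07 TPM on day 1, 3.78 ± 3.01 on day 6, 15.5 ± 5.89 on day 10 and 92.2 ± 26.5 on day 39. MT1X averaged 7.11 ± 2.72, 3.63 ± 2.40, 2.81 ± 2.01 and 41.8 ± 11.7 TPM on the same 4 days. SLC30A1 averaged 14.8 ± 1.03 TPM on day 2, its early maximum, then 5.69 ± 1.92 on day 10 and 16.1 ± 1.47 on day 39. MT1A and MT1H stayed at a day mean of at most 0.126 TPM throughout.

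Day 10 against day 1 called 2 genes higher, MT3 (3.17 ± 0.154) and MT2A (0.52 ± 0.192), and 2 lower, MT1X (-1.28 ± 0.271) and SLC30A1 (-0.93 ± 0.0983), beside 35.6% and 40.4% of all genes. Day 39 against day 10 called 7 higher and none lower, beside 43.6% and 34.9%: MT1X (3.71 ± 0.280), MT3 (3.34 ± 0.159), MT2A (2.55 ± 0.199), MT1E (2.04 ± 0.197), SLC30A1 (1.40 ± 0.102), MT1F (1.27 ± 0.257) and MT1G, which had 0.389 ± 0.502 TPM on day 39 (0.25 ± 0.116). The call of MT1G ended with 5 TPM added (adjusted p = 0.0592) and with median centring (adjusted p = 0.115). The median share of MT3 in the summed metallothionein level was 70.8% on day 39 and 14.1% on day 1. All 9 genes of an astrocyte marker list (GFAP, AQP4, ALDH1L1 and others) rose between day 10 and day 39, and their summed level was 283 to 310 TPM on day 1, 328 to 415 TPM on day 10 and 4142 to 5754 TPM on day 39. All 5 of a mesenchymal list rose as well (summed level 4237 to 8273 TPM on day 39 and 500 to 704 TPM on day 10), while microglial markers summed to at most 1.75 TPM on day 39. All 8 genes of the hypoxia list rose between these days too (median 3.82, against 2.40 for the astrocyte list). The part of cell composition or of the hypoxia genes in the rise of the metallothioneins and SLC30A1 was not tested.

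**Figure D4:**
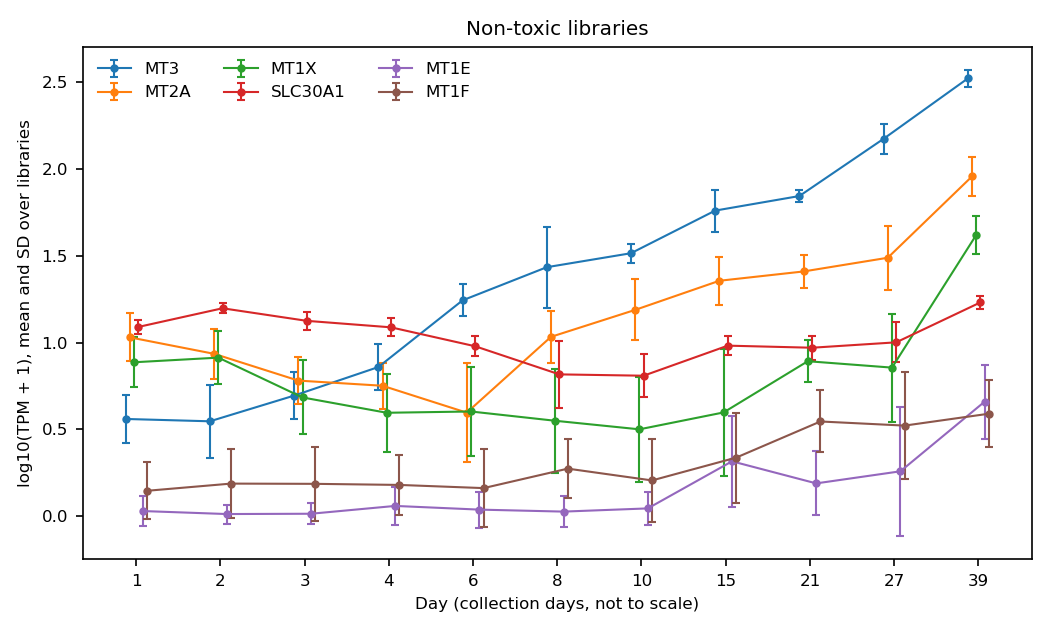
Mean and SD of log10(TPM + 1) over the non-toxic libraries on each of the 11 collection days (7 to 16 libraries) for MT3, MT2A, MT1X, SLC30A1, MT1E and MT1F. Over the days MT3 is highest on day 39 and lowest on days 1 and 2, MT2A is lowest on day 6, and MT1X is highest on day 39.

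On days 8 to 39, 21 toxic compounds could be fitted, and 25 of 210 pairs of compound and gene were called, 17 higher and 8 lower, beside 7.11% and 9.45% over all genes. Outside lead acetate, MT3 was the gene called most often. In dexamethasone, at 100 µM, it had 37.6, 52.7, 163, 276, 284 and 927 TPM on days 8, 10, 15, 21, 27 and 39, against non-toxic means of 31.7, 31.9, 58.3, 68.8, 150 and 331 TPM (1.19 ± 0.166, adjusted p = 6.52e-08, above every non-toxic library on 5 of 6 days). On day 8 the non-toxic range was widened by ibuprofen, at 116 TPM. MT2A was also higher in dexamethasone (1.04 ± 0.214, adjusted p = 0.000255), as were FKBP5 (1.47 ± 0.191) and TSC22D3 (0.30 ± 0.0518) of 7 glucocorticoid response genes, the only 2 of them called higher. ALDH1L1, an astrocyte marker, rose in dexamethasone by 2.11 ± 0.130, as did ALDOC (0.50 ± 0.132), while AQP4 (-0.61 ± 0.128) and S100B (-0.42 ± 0.106) fell and 5 of the 9 markers were not called; their summed level was 403 to 4823 TPM there. Their part in the rise of MT3 was not tested. MT3 and MT2A were 2 of 10 genes called higher, beside 3.45% of all genes.

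MT3 was called lower on days 8 to 39 for 6 compounds: (trans) retinoic acid (-1.07 ± 0.179), isotretinoin (-0.91 ± 0.176), hydroxyurea (-0.90 ± 0.168), U0126 (-0.85 ± 0.185), PD166866, an FGF receptor inhibitor (-0.56 ± 0.126), and Bis-I (-0.56 ± 0.169). In (trans) retinoic acid, at 1.7 µM, MT3 had 4.67, 11.2, 25.8, 82.0, 82.8 and 158 TPM on days 8, 10, 15, 21, 27 and 39, below every non-toxic library on 5 days and above on day 21. Isotretinoin, at 0.5 µg/ml, had 11.6, 7.14, 20.4, 75.8, 94.6 and 240 TPM, also below on 5 of 6 days. The day 21 library of (trans) retinoic acid had a length slope of -0.24. Hydroxyurea had 8.36, 12.5, 29.3, 72.8, 60.9 and 232 TPM, below on 5 days. U0126 had 16, 15, 43.4, 84.2 and 129 TPM on days 8, 10, 15, 27 and 39, below on 4. PD166866 (26.7, 37.4, 76.1, 55.0 and 197 TPM from day 10 on) and Bis-I (9.17, 18.7, 43.5, 73.0, 70.0 and 359 TPM) were each below on 3. Among all genes 24%, 17.7%, 17.7%, 8.3%, 22.8% and 26.2% were called lower in these 6 compounds in the order given. The neural progenitor list of 6 genes summed to 726 to 915 TPM in (trans) retinoic acid on these days and 788 to 1196 TPM in isotretinoin, against 1296 to 1460 TPM in the non-toxic libraries of day 10; its part was not tested. Of the 9 astrocyte markers, 9 were called lower in Bis-I (median -0.55), 8 in PD166866 (-0.82) and 7 in U0126 (-0.77), and none higher. In (trans) retinoic acid 4 were higher and 3 lower, in isotretinoin 3 and 3, and in hydroxyurea 4 and 3. Their summed level on days 8 to 39 was 226 to 1690 TPM in Bis-I, 261 to 2738 TPM in PD166866 and 263 to 1453 TPM in U0126, against 4142 to 5754 TPM on day 39 and 328 to 415 TPM on day 10 in the non-toxic libraries; their part in the MT3 values was not tested. Of the 8 hypoxia genes, 8 were called lower in Bis-I (median -0.80), PD166866 (-1.30) and U0126 (-1.14). In hydroxyurea 6 were lower and 1 higher, in isotretinoin 4 and 1, and in (trans) retinoic acid 3 and 2. All 8 were also lower in dexamethasone (-0.87), and 6 in lead acetate (-0.83), where MT3 was called higher. The part of the hypoxia genes was not tested either. With the length slope as a covariate the MT3 difference in Bis-I was -0.90. With median centring it was -0.41 and no longer called (adjusted p = 0.122).

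MT1F, at most 12.4 TPM in any non-toxic library, rose in both retinoids. It had 4.50, 4.2, 9.33, 8.42, 10.3 and 25.9 TPM in (trans) retinoic acid (1.91 ± 0.326, adjusted p = 1.08e-06) and 2.99, 1.07, 2.12, 10.6, 9.40 and 23.6 TPM in isotretinoin (1.34 ± 0.336, adjusted p = 0.000789), against non-toxic means of 1.00, 0.866, 1.51, 2.81, 3.21 and 3.25 TPM. Among all genes 20.7% were called higher in (trans) retinoic acid and 20% in isotretinoin. The later minus earlier test was called for both (1.58 ± 0.424 and 1.41 ± 0.430, adjusted p of 0.00155 and 0.00719), beside 16.7% and 16.8% of all genes called higher. The compounds are geometric isomers with doses stated in different units, and they were not tested against each other.

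**Figure D5:**
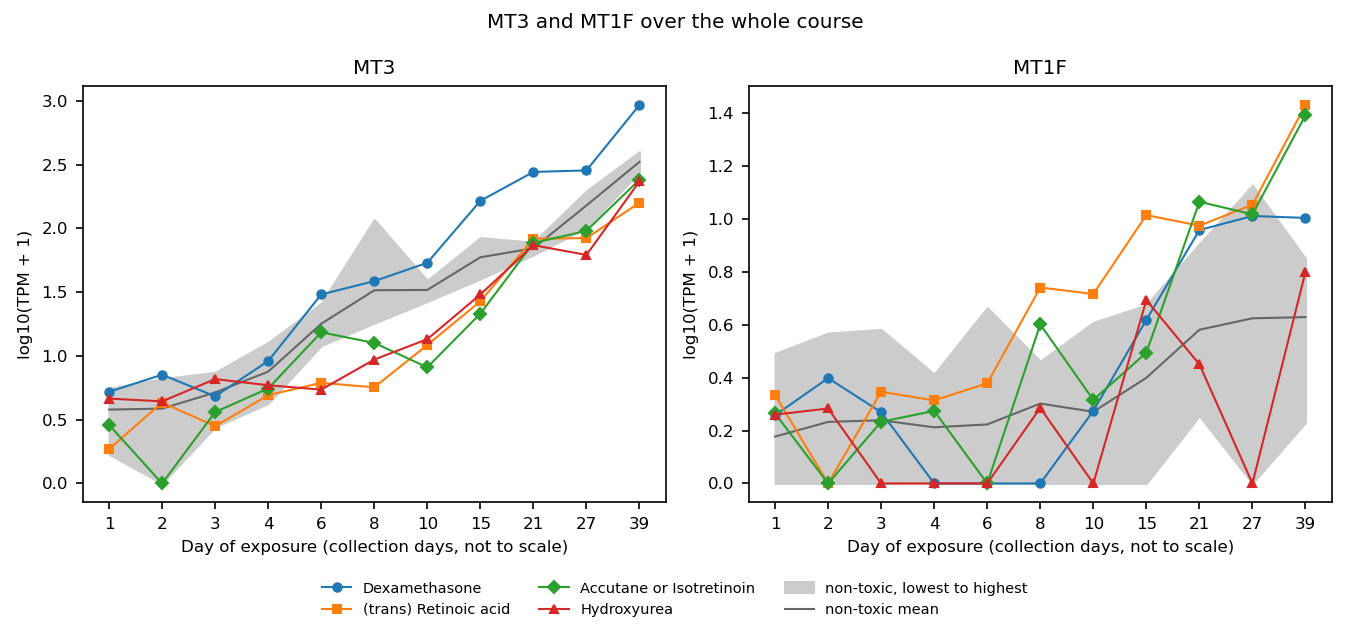
TPM of MT3 and MT1F on a log10(TPM + 1) scale on all 11 days for dexamethasone, (trans) retinoic acid, isotretinoin and hydroxyurea, 1 library per point, with the non-toxic range as a grey band. For MT3 dexamethasone runs above the band from day 10 on, and the other 3 compounds below it or at its lower edge on most later days.

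Hydroxyurea (1.02 ± 0.240) and K252a (0.92 ± 0.228) had MT2A called higher on days 8 to 39 as well, at 26.9, 40.4, 77.6, 90.5, 50.3 and 45.9 TPM and 20.6, 38.1, 66.2, 70.1, 53.2 and 57.3 TPM, beside 23.8% and 17.5% of all genes called higher. Both were above every non-toxic library on 4 days and below every one on day 39, when the non-toxic libraries themselves held 66.2 to 154 TPM. SLC30A1 was lower for PD166866 (2.57, 6.51, 4.88, 8.70 and 7.61 TPM from day 10 on, -0.59 ± 0.147) and benzene (2.64, 4.39, 5.16, 2.53, 6.98 and 12 TPM, -0.64 ± 0.166), below every non-toxic library on 4 and 3 days, and in benzene 4.27% of all genes were called lower. With the length slope as a covariate the differences were -0.37 (adjusted p = 0.0462) and -0.41 (adjusted p = 0.00894); the day 21 libraries had slopes of -0.19 in PD166866 and -0.31 in benzene. Amiodarone had higher MT1F (0.87 ± 0.326, adjusted p = 0.0470) and MT1X (1.08 ± 0.366, adjusted p = 0.0292), beside 6.05% of all genes called higher, and both calls ended with the length slope as a covariate, with differences of 0.84 and 0.96 (adjusted p of 0.0797 and 0.0702).

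As classes, with 1 mean per compound, none of the 10 genes was called between toxic and non-toxic compounds on days 1 to 6 (0.294% of all genes were called, and no member had an unadjusted p below 0.05) or on days 8 to 39 (17.3% of all genes; 1 member, MT1F, at an unadjusted p of 0.0206). For MT2A the early difference was 1.81 with an SE of 11.5, from the variance trend of that fit; with the trend taken over expression level the SE was 0.672 and the adjusted p 0.12.

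By likeness over the 44 compounds with enough libraries on days 1 to 6, given as Spearman rho of their mean deviations and with no test, the genes most like MT2A among 14158 included DDIT3, a stress-induced transcription factor (0.85), ATP5E (0.83), VAMP5 (0.83) and UQCRQ (0.78). SLC30A1 was most like G6PC3 (0.78), HLA-B (0.69), BAG3, a heat shock co-chaperone (0.69), TWISTNB (0.69) and KLF10 (0.69). For MT3 the highest values were lower, with NOG, FGGY, RGAG1, CD300E and NRL between 0.46 and 0.53. Within the group, MT2A was more like MT1G (0.71) and MT1E (0.66) than SLC30A1 (0.42). The other metallothioneins were less like MT2A than SLC30A1 was: MT1M (0.37), MT1A (0.31), MT1F (0.27), MT1H (0.26), MT1X (0.20) and MT3 (0.07). Over the 11 non-toxic day means, Pearson's r was 0.99 for QDPR and 0.98 for PDAP1 with MT2A, 0.99 for WNT7A and ENO2 with MT3, and 0.97 for UFL1 and 0.96 for DARS with SLC30A1. The points share the same libraries, the same non-toxic reference and the same culture age.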

How the data were processed

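The values are TPM per gene as deposited by the authors, 1 column per library, all with the same total; per the submitters' processing notes, CASAVA 1.8.2, RSEM 1.2.1, Bowtie 0.12.8 and the hg19 build were used, with no role given. Expected counts, strand and depth are not given in the sources used here, so no count test was run and precision is set by the number of libraries. Each library was assigned to its compound, class and day by the labels. From the deposited TPM, log2(TPM + 1) was computed for the 16318 genes that reached 1 TPM in 5 libraries or more. limma 3.58.1 in R 4.3.3 fitted compound against the same-day non-toxic libraries, with day as a term, a variance trend and a within-compound correlation of 0.0212, for days 1 to 6, days 8 to 39 and all days, needing at least 3 libraries. Metal pairs were fitted with day as a term and the variance trend, without the within-compound correlation. Day contrasts compared days over the non-toxic libraries, also with the trend and without that correlation. Classes were compared on 1 mean deviation per compound, with the trend and with neither a day term nor that correlation. Steps were tested on simulated data. The labels give the day of exposure, which libraries of different compounds share, so day is the block of the compound and metal pair fits. Same-day libraries were checked for identity: none was identical, and the highest correlation was 0.997. Lengths and shared 50-base windows come from GENCODE 29; 93.1% of genes averaging 10 TPM or more had a length. The 10 genes and all gene lists were chosen with earlier results of these data known. Named values are those called with a difference of at least 1 log2, and MT3 and SLC30A1 where called; list genes are named from 0.5 log2, at most 8. Alternatives changed the pseudocount, filter, scaling, block, covariates and libraries. Protein sequences and the promoters of 6 members were not used here. 1 gene of the likeness lists is not reported here.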

Additional observations from a re-analysis of the deposited data

Results flagged for a closer look

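Of 62 groups of 4 to 10 libraries examined, 9 held a library whose gap to its nearest neighbour was large for the range of the group. In cadmium these were MT1A on day 6, the lowest at 29.5 TPM, MT3 on day 6, the lowest at 3.48 TPM, MT1F on day 6, the highest at 4082 TPM, and MT1X on day 2, which was lowest relative to the non-toxic libraries of its day although its level, 6723 TPM, was not. In arsenic MT1F was highest on day 1, at 334 TPM. In vincristine MT1G (69.6 TPM) and MT1M (21.4 TPM) were highest on day 4, the library with the low median. Among the non-toxic libraries of day 8, ibuprofen was highest for MT3 (116 TPM) and lowest for SLC30A1 (1.17 TPM), and its length slope was -0.44.

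The difference between days 8 to 39 and days 1 to 6 was examined for 14 pairs of compound and gene and was called for 6. These 14 were picked from the same data, as pairs called with a difference of at least 1 log2 in either window. The count of 6 is therefore no rate. Over all 210 pairs fitted, 8 were called higher on the later days and 8 lower. Among all genes 8.83% were called higher in lead acetate, 16.7% in (trans) retinoic acid and 16.8% in isotretinoin. In lead acetate the later minus earlier difference was 2.61 for MT1E, 1.58 for MT1X, 1.59 for MT2A and 0.97 for SLC30A1, and for MT1F it was 1.58 in (trans) retinoic acid and 1.41 in isotretinoin.

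A further library was noticed after its values were seen. Acetaminophen on day 27, labelled non-toxic, held 94.3 TPM of MT2A, 34.4 of MT1X, 16.8 of MT1E, 12.4 of MT1F and 17.3 of SLC30A1. The other 11 non-toxic libraries of that day reached at most 34.7, 11.1, 2.46, 4.98 and 10.9 TPM.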

How the results depend on the processing

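Without day as the pairing block (no day term), 61 pairs of compound and gene were called on days 1 to 6 against 77 with it, and 9 on days 8 to 39 against 25; the loss includes every late MT3 call. The blocked fit is the one reported. With the length slope as a covariate, 3 of the genes were called in okadaic acid against 7: MT2A and SLC30A1 of the 7, and MT1M (0.51, adjusted p = 0.0168), which had not been called. Without cadmium and arsenic 1 gene, MT1G, was called between the classes on days 1 to 6 against 0. Leaving out 1 library reversed 4 low-level values: arsenic MT1A without day 2 (range -0.0147 to 0.376), AraC MT1A without day 6 (-0.0313 to 0.343), okadaic acid MT1G without day 3 (-0.0361 to 0.323) and vincristine MT1G without day 4 (-0.0361 to 1.52). It left the number of genes called at 10 for cadmium in each case, 8 to 10 for arsenic, 4 to 6 for busulfan, 4 to 5 for AraC, 6 to 7 for okadaic acid and 3 to 5 for vincristine. Over the other settings (0.1 or 5 TPM added, median centring, no filter, no compound block, controls without ibuprofen, steep libraries left out, length covariate) the early count was 66 to 88 and the late count 22 to 34. TPM keeps no depth, so low genes carry an unknown counting error.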
